A study of Mus musculus with 6 samples.

Results

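Brwd1, Map1a, Magi1 and Lppr4 are 4 host genes whose circular RNAs (circRNAs) were examined in the striatum of mice lacking the RNA-binding protein HuD. Every circle whose host was listed exactly under 1 of these symbols was taken, whether in the deposited table of circRNAs lower in HuD KO, in the table of higher ones, or among the circRNAs listed as bound by HuD. This gave 8 circles among 14236 circRNA probes on the array and among 3056 circles with a listed host. Magi1 had 4, Brwd1 had 2, and Map1a and Lppr4 had 1 each. The HuD-bound list held 4 of the 8, 1 per host, and 7 were in the table of lower circRNAs. The hosts were chosen by the change in signal between HuD KO and WT on these arrays together with HuD binding, so the changes of their circles are given as a description without a test. The paper's choice also required a rise in mice overexpressing HuD, which are not on these arrays, and included Foxp1 as a further host. A host was listed only for circles that were changed or bound, so other circles of these genes could not be recognised.

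The arrays compared 3 HuD KO mice (Elavl4-/-) with 3 WT littermates, all adult males on a C57BL6 background, with 1 array per mouse. Total striatal RNA was digested with RNase R, an exonuclease that degrades linear RNA, and labelled with Cy3 by random priming. The HuD-bound list came from other animals, in which a myc-tagged HuD under the Camk2a promoter was immunoprecipitated from pooled striata with an antibody against the tag. The copy of the list used here held 658 circles and is shorter than the one the study describes. A circle absent from it is called unbound only in the sense of not listed, so binding of the unbound Brwd1 and Magi1 circles is not settled by it.

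HuD, encoded by Elavl4, is a neuronal member of the Hu/ELAV family that binds AU-rich and U-rich stretches of RNA and acts on the stability and translation of its targets. A circRNA forms when a downstream splice donor is joined to an upstream acceptor, which leaves a closed ring without free ends, and 1 gene can give several circles. Brwd1 encodes a bromodomain and WD-repeat protein of chromatin. Map1a encodes a microtubule-associated protein of mature neurons. Magi1 encodes a membrane-associated guanylate kinase (MAGUK) scaffold of cell junctions, and Lppr4, now named Plppr4, encodes a lipid phosphate phosphatase-related protein of glutamatergic synapses.

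Each circle is detected through a sequence of 60 bases across its back-splice junction, and these sequences identify the 8 circles. They are shown 5′ to 3′ as deposited or as given in the list of HuD-bound circles. In the Brwd1 and Map1a circles, capitals mark 7 bases that complement the seed of a miRNA predicted for that circle. In mmu_circRNA_018247 and mmu_circRNA_19425 of Magi1, capitals mark the end that follows the stretch both share.
mmu_circRNA_30129 (Brwd1, bound): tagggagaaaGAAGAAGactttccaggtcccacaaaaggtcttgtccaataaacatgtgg
mmu_circRNA_30123 (Brwd1, unbound): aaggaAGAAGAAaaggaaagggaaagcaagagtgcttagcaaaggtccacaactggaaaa
mmu_circRNA_34414 (Map1a, bound): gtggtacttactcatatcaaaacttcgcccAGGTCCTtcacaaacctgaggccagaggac
mmu_circRNA_40577 (Magi1, bound): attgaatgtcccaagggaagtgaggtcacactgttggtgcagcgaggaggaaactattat
mmu_circRNA_018247 (Magi1, unbound): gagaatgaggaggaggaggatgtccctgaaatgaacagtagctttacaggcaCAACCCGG
mmu_circRNA_19425 (Magi1, unbound): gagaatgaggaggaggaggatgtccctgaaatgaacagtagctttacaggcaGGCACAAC
mmu_circRNA_40582 (Magi1, unbound): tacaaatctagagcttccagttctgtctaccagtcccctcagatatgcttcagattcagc
mmu_circRNA_36029 (Lppr4, bound): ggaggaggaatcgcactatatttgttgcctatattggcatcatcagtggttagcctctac

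The Magi1 circles mmu_circRNA_018247 and mmu_circRNA_19425 shared their first 52 bases. After these, mmu_circRNA_19425 held 4 extra bases before the sequence of mmu_circRNA_018247 resumed. Their starts differed by 1 base and their ends by 3 bases, so their signals cannot be told apart. Counts below list both, and they are not independent.

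The circles were placed in their hosts by the deposited coordinates, whose build and start convention are not stated, and all 8 lay inside the GRCm38 RefSeq span of the host on the same chromosome. Map1a mmu_circRNA_34414 was the smallest, an exonic circle at chr2:121298596-121299046 on the plus strand. Its 450 bases began 9.01 kb from the 5′ end of a gene of 21.2 kb. Lppr4 mmu_circRNA_36029 was exonic, at chr3:117325789-117335591 on the minus strand, and spanned 9.80 kb. The bound Brwd1 circle mmu_circRNA_30129 was exonic, at chr16:96043000-96068627 on the minus strand, and began 14.1 kb into the gene. The unbound Brwd1 circle mmu_circRNA_30123, also exonic, at chr16:96002433-96017724, lay further towards the 3′ end, with 25.3 kb between both spans.

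Magi1 is the longest of the 4 genes, 608 kb on the minus strand of chromosome 6. The bound exonic circle mmu_circRNA_40577 lay at chr6:93745433-93792553 and spanned 47.1 kb of it. The exonic mmu_circRNA_018247, at chr6:93792346-93815825, and the sense-overlapping mmu_circRNA_19425, at chr6:93792345-93815828, lay just upstream and overlapped the bound circle by 207 and 208 bases. The intronic mmu_circRNA_40582, at chr6:94050640-94069200, lay 258 kb upstream of the bound circle. The spans in the 4 hosts, with bound and unbound circles in different colours, are drawn in the map of the circles.

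**Figure D1:**
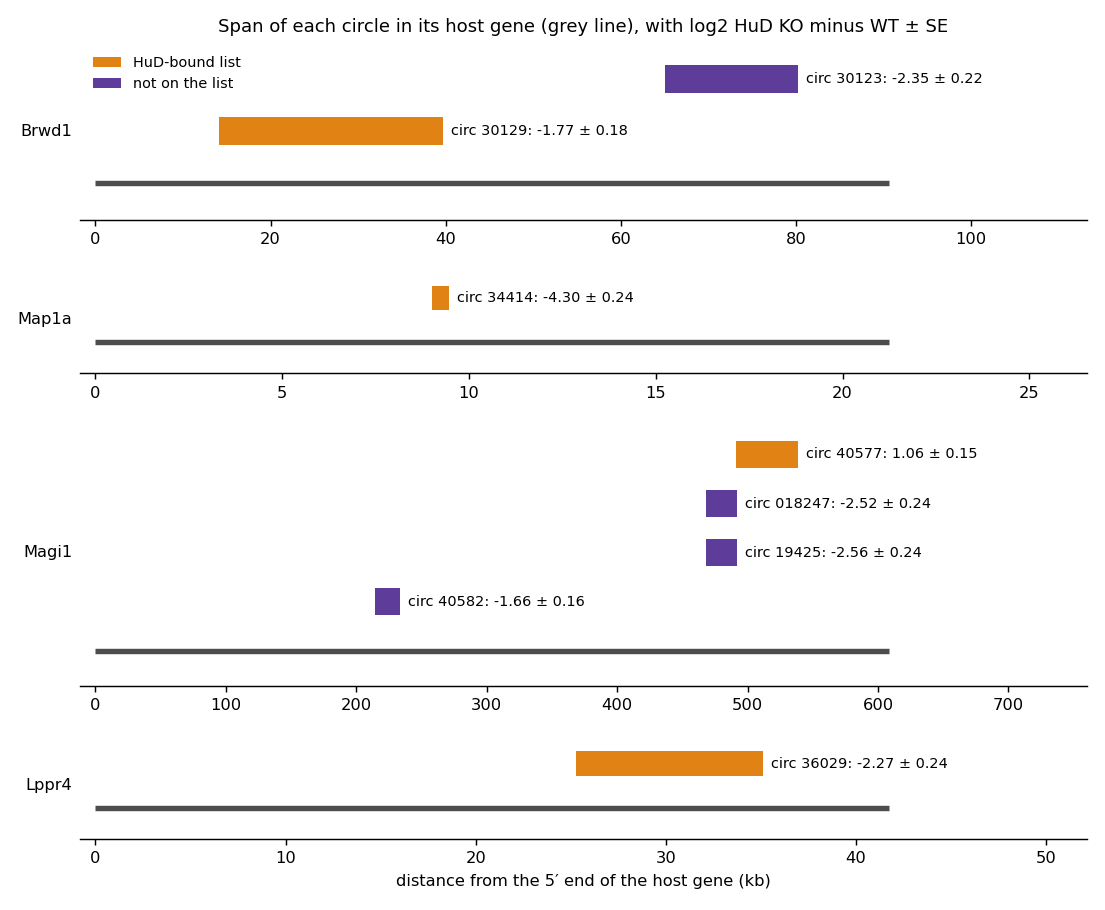
Span of each circle along its host gene, as distance in kb from the 5′ end of the gene (grey line: whole gene; each host has its own scale), with the log2 change in HuD KO ± SE beside it. Orange circles are on the HuD-bound list and purple circles are not; the bound Magi1 circle (1.06) lies beside the circles with changes of -2.52 and -2.56.

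Levels below are log2 background-corrected intensities minus the array's own 75th percentile over circRNA probes. They compare arrays for 1 probe and do not rank 1 circle against another. All 8 circles were well above background on all 6 arrays, and none of their 48 spots was saturated or an outlier. On single arrays, 84.0% to 96.7% of circRNA probes passed that mark. The arrays were read in 3 scans, 1 for the WT group, 1 for HuD KO replicates 1 and 2, and 1 for HuD KO replicate 3 alone. Scan and genotype therefore cannot be told apart. No circle had Elavl4 as its listed host, so the deletion itself was not checked here. Of the striatal neuron hosts, 3 had 7 circles measured (Foxp1, Bcl11b and Arpp21), all on the HuD-bound list. Of these 7, 3 were called higher and 1 lower in HuD KO (limma, adjusted p under 0.05). Their log2 changes ran from -3.69 to 1.29, both in Foxp1. Higher and lower calls made up 42.6% and 14.0% of the HuD-bound circles, and 26.2% and 37.2% of all tested probes. The lower call was Foxp1 mmu_circRNA_40615, which is in the deposited table of lower circRNAs. The paper selected a Foxp1 circle partly for its fall in these mice, so this call is not an independent marker test. The astrocyte host Slc1a2 had 1 circle, higher by 0.70 (SE 0.17, limma adjusted p = 0.00900), and no oligodendrocyte or microglia host was listed. These calls depend on the scaling of the arrays. Scaling on the circRNA control probes lowered every circle alike, and took a rise of 0.78 (Dst mmu_circRNA_008397) to -0.0047. The part of cell composition in the results was not tested. A lower signal in tissue cannot separate fewer cells of a type from less RNA per cell.

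Map1a mmu_circRNA_34414 had the lowest change of the 8 circles. Its levels were 2.29, 2.47 and 3.17 in HuD KO replicates 1, 2 and 3 and 6.99, 7.09 and 6.77 in the WT replicates. The groups were far apart, and the separately scanned HuD KO replicate 3 was the highest of its group. The mean was 6.95 ± 0.17 for WT against 2.64 ± 0.47 for HuD KO (SD, n = 3 each). The log2 change was -4.30 (SE 0.24), a signal 19.8-fold lower in HuD KO. Before scaling, the corrected intensity ranged from 879 to 2458 on the HuD KO arrays and from 15501 to 21454 on the WT arrays, so the circle remained measurable in HuD KO.

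Lppr4 mmu_circRNA_36029, the circle of the synaptic lipid phosphatase-related protein, was also lower. Its levels were -0.11, -0.14 and 0.34 in HuD KO and 1.81, 2.53 and 2.56 in WT. All 3 HuD KO arrays lay below all 3 WT arrays, with HuD KO replicate 3 again the highest of its group. The means were 0.03 ± 0.27 and 2.30 ± 0.42 (SD, n = 3 each), a log2 change of -2.27 (SE 0.24), or 4.83-fold lower.

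Both circles of Brwd1, the chromatin reader gene, were lower in HuD KO. The bound mmu_circRNA_30129 had levels of -0.72, -0.60 and -1.07 in HuD KO and 1.03, 1.13 and 0.75 in WT. Here the lowest value came from HuD KO replicate 3. The log2 change was -1.77 (SE 0.18), or 3.40-fold lower. The unbound mmu_circRNA_30123 had levels of -1.03, -1.07 and -1.49 in HuD KO and 0.79, 1.19 and 1.50 in WT. Its groups did not overlap either, and its log2 change was -2.35 (SE 0.22), or 5.11-fold lower.

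Magi1 was the host in which bound and unbound circles went opposite ways. The bound mmu_circRNA_40577 had levels of 1.84, 1.87 and 1.77 in HuD KO and 0.56, 0.88 and 0.87 in WT. It was higher on every HuD KO array than on any WT array, and its HuD KO values had the smallest spread of the 8 circles (SD 0.05). The log2 change was 1.06 (SE 0.15), or 2.08-fold higher. The paper counts circMagi1 among its HuD-bound circRNAs and reports a decrease of it in HuD KO. The listed bound Magi1 circle went the other way here. The paper's supplement lists the circRNAs of its cross-comparison, but which Magi1 circle it refers to was not established here.

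The unbound Magi1 circles were lower. For mmu_circRNA_018247 the levels were 2.54, 2.39 and 1.98 in HuD KO and 4.37, 5.09 and 5.01 in WT, a log2 change of -2.52 (SE 0.24). The near-identical mmu_circRNA_19425 had 2.62, 2.45 and 1.86 in HuD KO and 4.51, 5.07 and 5.04 in WT, a log2 change of -2.56 (SE 0.24). In both, WT replicate 1 was the lowest WT array and HuD KO replicate 3 the lowest of all. The intronic mmu_circRNA_40582 had -1.47, -1.54 and -1.17 in HuD KO and 0.36, 0.31 and 0.13 in WT. Its log2 change of -1.66 (SE 0.16) was the nearest to 0 of the 7 lower circles.

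**Figure D2:**
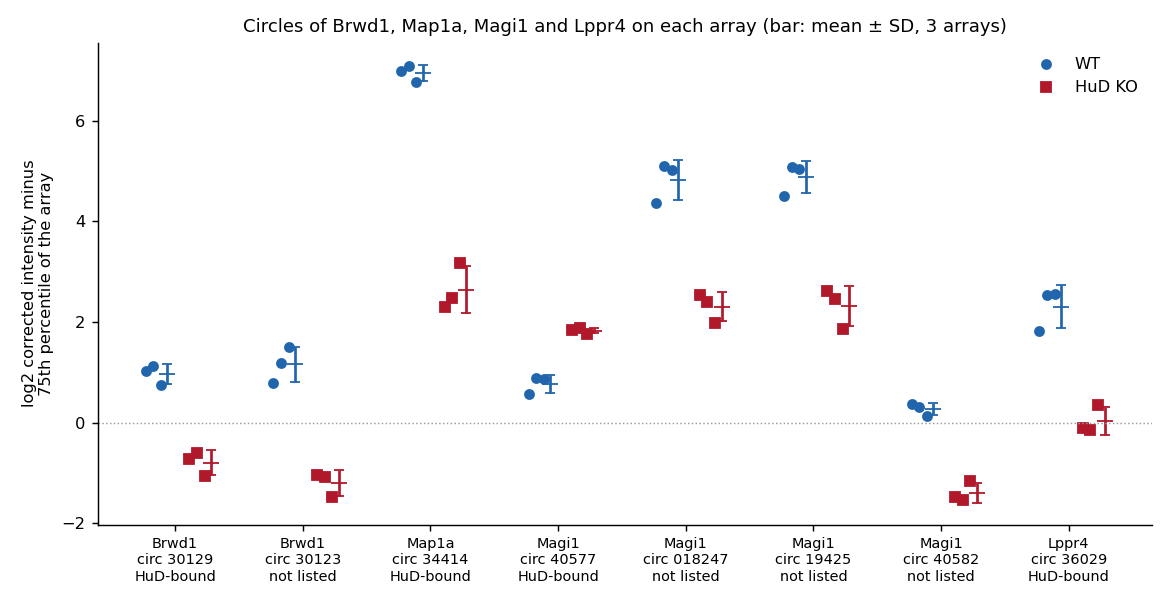
Level of each circle on each of the 6 arrays (log2 corrected intensity minus the 75th percentile of the array; circles are WT and squares HuD KO; bars are mean ± SD of 3 arrays). The groups do not overlap for any of the 8 circles; mmu_circRNA_40577 of Magi1 is the 1 circle with HuD KO above WT.

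The 2 groups did not overlap for any of the 8 circles, 7 lower and 1 higher. Over the array, all HuD KO arrays lay on 1 side of all WT arrays for 70.1% of the probes, so separation was common. In a limma fit over 13445 tested probes, 37.2% were called lower and 26.2% higher in HuD KO at a Benjamini-Hochberg adjusted p under 0.05. The balance depended on scaling, with 2552 lower and 5348 higher probes when arrays were not scaled and 8480 lower and 612 higher with scaling on control probes, against 4997 and 3522. Tested probes had a median log2 change of -0.11. The change of Map1a mmu_circRNA_34414 was the 40th lowest of all, and those of the 6 other lower circles ranked between 670 and 1778 from the bottom. The deposited tables hold circRNAs past a fold change of 2, per their headers. Of the lower circles the one nearest that limit was mmu_circRNA_40582 of Magi1, 2.79-fold lower in the authors' deposited log2 values. The bound Magi1 circle, at 2.08-fold higher in the values used here, was in neither table.

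After scaling, which removes any shift common to a whole array, HuD KO replicate 3, the array scanned alone, did not move the circles one way. It lay below the mean of the other HuD KO arrays for 5 circles and above it for 3, by 0.79 for Map1a mmu_circRNA_34414 and by -0.67 for Magi1 mmu_circRNA_19425 at the extremes. Without any single array, the change of mmu_circRNA_34414 stayed between -4.57 and -4.13, that of mmu_circRNA_36029 between -2.52 and -2.14, and that of mmu_circRNA_40577 between 0.95 and 1.11.

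Scaling each array by another single factor moved every circle by the same amount. With no scaling, the change of mmu_circRNA_40577 was 1.57 and that of mmu_circRNA_34414 was -3.79. With scaling on 14 circRNA control probes, they were 0.27 and -5.09. The median over all tested probes moved with them, to 0.41 with no scaling and to -0.89 with control-probe scaling. Relative to that median, mmu_circRNA_40577 was 1.17 higher and mmu_circRNA_34414 was at -4.19 under each of these scalings, which shift every probe alike. Over all 17 alternatives, these relative values ran from 0.79 to 1.23 and from -4.66 to -4.03.

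**Figure D3:**
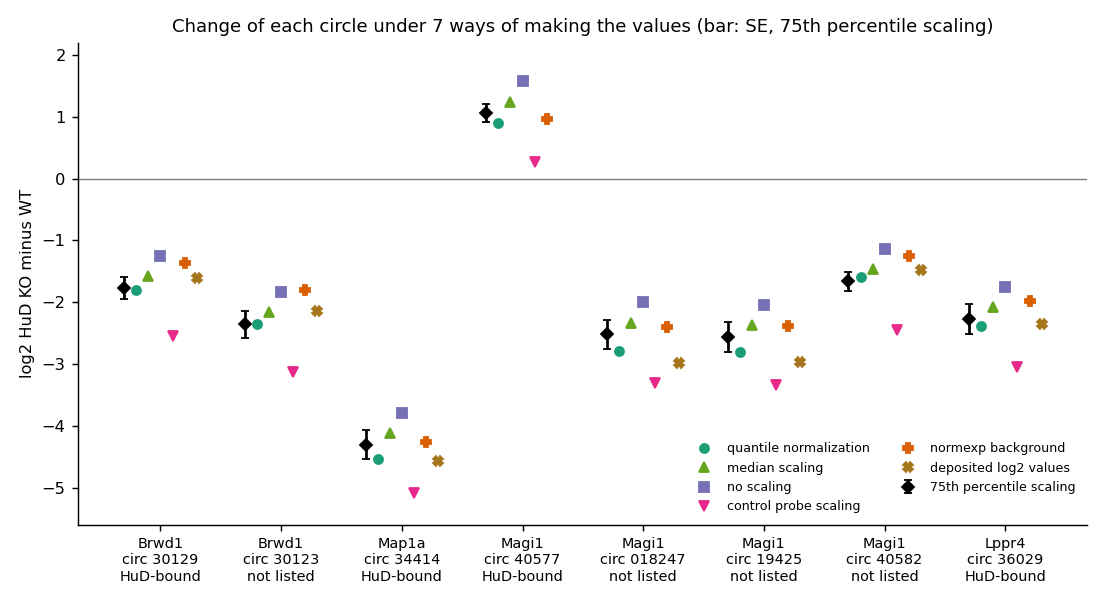
Log2 change in HuD KO of the 8 circles under 7 ways of making the values (black diamonds: values of the report with their SE; other symbols: quantile, median, no or control-probe scaling, normexp background, and the deposited log2 values, which do not include mmu_circRNA_40577). Points of 1 circle stay on their side of 0, and mmu_circRNA_40577 comes nearest to it, at 0.27 with control-probe scaling.

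Setting bound and unbound circles of 1 host side by side removes the scaling of the arrays. In Magi1, the change of the bound mmu_circRNA_40577 exceeded that of mmu_circRNA_018247 by 3.58 (SE 0.19) on the log2 scale and that of mmu_circRNA_19425 by 3.62 (SE 0.22). Against the intronic mmu_circRNA_40582 the difference was 2.72 (SE 0.22). The per-array differences of the genotypes did not overlap in any of these pairs. The near-identical mmu_circRNA_018247 and mmu_circRNA_19425 differed in their changes by 0.04 (SE 0.08), with overlapping groups.

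In Brwd1, where both circles were lower, the change of the bound circle lay 0.59 (SE 0.29) above that of the unbound one on the log2 scale. The per-array differences of the genotypes did not overlap here either. The size rested on single arrays, at 0.31 without WT replicate 3 and 0.80 without WT replicate 1. Map1a and Lppr4 had no listed unbound circle.

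Among tested circles, 114 hosts had both a bound and an unbound member. The unbound ones were in the deposited tables and so were selected for a change, which the bound ones were not. In 45 hosts the unbound circles were lower on average, and in 30 of these the bound circles were higher, as in Magi1, while in 15 they were lower, as in Brwd1. In 66 of the 69 hosts with higher unbound circles the bound circles were higher too, so bound circles were higher on average in 96 of the 114 hosts. Unlike the differences within a host, these counts of direction depend on the scaling of the arrays. Control-probe scaling lowered every circle alike, and the counts were not repeated with it. The difference in Magi1, between the 1 bound circle and the mean of the 3 unbound ones, was 3.30 and ranked 5 from the top of the 114. With the near-identical pair counted once, a choice made after seeing the data, it was 3.16 and ranked 6. Brwd1 ranked 43. These ranks mix hosts whose unbound circles were lower with hosts whose unbound circles were higher. The median difference was 2.11 in the 45 hosts with lower unbound circles and -0.55 in the 69 with higher ones. Magi1 and Brwd1 both belonged to the 45. Magi1 lay above their median, and Brwd1, with a difference of 0.59, lay well below it.

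**Figure D4:**
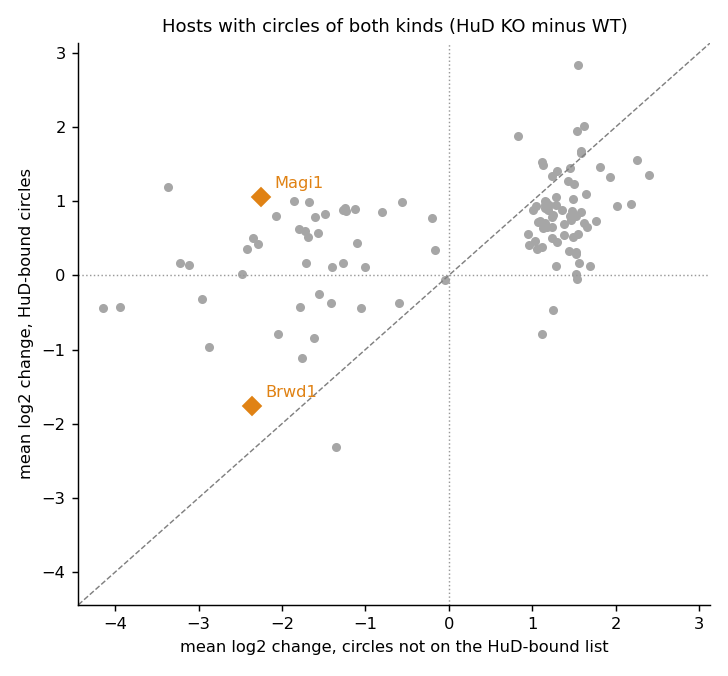
Mean log2 change in HuD KO of the circles on the HuD-bound list (vertical axis) against that of the other listed circles (horizontal axis) for each of 114 hosts with both; dashed line, equal change. Brwd1 lies near the dashed line at lower left and Magi1 at upper left, with a higher bound circle and lower unbound circles. Few hosts lie near 0 on the horizontal axis, where circles outside the bound list were not listed.

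The HuD-bound list places the 4 bound circles. It had 657 tested circles, the 4 included, with a median log2 change of 0.37, of which 14.0% were called lower and 42.6% higher. The balance turned with control-probe scaling, from 92 lower and 280 higher circles to 292 lower and 39 higher, while no scaling gave 25 lower and 410 higher. From the lowest change upward, Map1a mmu_circRNA_34414 ranked 1, Lppr4 mmu_circRNA_36029 ranked 9 and Brwd1 mmu_circRNA_30129 ranked 14. Magi1 mmu_circRNA_40577 ranked 576, so 87.5% of the bound circles had a lower change. The 3 lower bound circles stood near the low edge of the list, which restates how they were chosen. The Magi1 circle, listed through its binding alone, stood in the upper part.

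**Figure D5:**
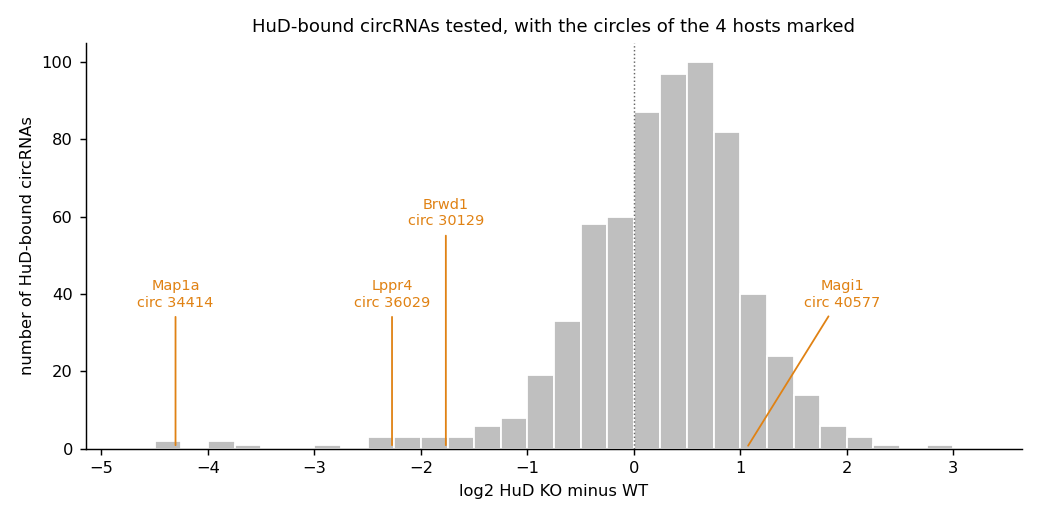
Number of HuD-bound circRNAs (vertical axis) by log2 change in HuD KO (horizontal axis, bins of equal width) for the 657 tested circles of the list, with the 4 circles of Brwd1, Map1a, Magi1 and Lppr4 marked. The Map1a circle, at -4.30, has the lowest change, and the list has its median at 0.37.

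Related host genes were described through circles on the HuD-bound list, which was made without these arrays, and these circles were tested in the same fit. Among 39 MAGUK and postsynaptic scaffold genes, 15 bound circles of 9 hosts other than Magi1 were measured. Of these, 12 were called higher, 1 lower and 2 were not called, with a median log2 change of 0.90. Higher calls made up 26.2% of all tested probes and 42.6% of the HuD-bound circles. With scaling on the control probes the count became 1 higher and 3 lower. The bound Magi1 circle moved in the direction of the 12. Several of these circles share a host, so they are not independent.

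The largest rises on that list were in Mpp6, Dlg1 and Homer1. Mpp6 encodes a MAGUK of the palmitoylated membrane protein family, and its mmu_circRNA_000405 had a level of -1.34 ± 0.06 for WT against 0.12 ± 0.17 for HuD KO (SD, n = 3 each). Its log2 change was 1.45 (SE 0.14, limma adjusted p = 0.000122, higher on 3 of 3 arrays). Dlg1, another MAGUK scaffold, had mmu_circRNA_29512 higher by 1.34 (SE 0.18, limma adjusted p = 0.000417), and this was not called with control-probe scaling (0.56, adjusted p = 0.0930). Homer1, a postsynaptic density scaffold, had the intronic mmu_circRNA_19101 higher by 1.27 (SE 0.27, limma adjusted p = 0.00407), likewise not called with control-probe scaling (0.48, adjusted p = 0.127).

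The circle called lower on the scaffold list was mmu_circRNA_011419 of Dlgap1, which encodes a scaffold protein that binds MAGUKs of the postsynaptic density. It fell to a log2 change of -0.52 (SE 0.13, limma adjusted p = 0.00978). It was at 0.000427 with no scaling between arrays and was not called with median scaling (-0.33, adjusted p = 0.0618).

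Among 47 microtubule-associated protein genes, 6 bound circles of 5 hosts other than Map1a were measured, of which 2 were called higher, 0 lower and 4 were not called. A share of 2 in 6 was close to the 26.2% and 42.6% called higher over all probes and over the bound list. Dclk1 encodes a microtubule-binding kinase of neurons, and its mmu_circRNA_35365 rose by 0.88 (SE 0.15, limma adjusted p = 0.00151). Dst encodes dystonin, a cytoskeletal linker, and its mmu_circRNA_008397 rose by 0.78 (SE 0.14, limma adjusted p = 0.00169). With control-probe scaling, Dclk1 was at 0.10 and Dst at -0.0047, neither of them called. The bound circles of Map2, another microtubule-associated protein gene of neurons, were not called, at -0.02 (mmu_circRNA_20275, SE 0.15, limma adjusted p = 0.915) and -0.01 (mmu_circRNA_20278, SE 0.16, limma adjusted p = 0.941).

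Neither the 41 bromodomain and chromatin reader genes nor the 42 lipid phosphatase and lysophospholipid genes had a bound circle besides those of Brwd1 and Lppr4. Circles of these genes in the deposited tables were chosen for their change and are described only. In all, these tables hold 1348 lower and 1140 higher circles, so either direction was common. Of 20 bromodomain circles, 10 were lower and 10 higher, among them Brwd3 mmu_circRNA_45697 at -1.81 and Phip mmu_circRNA_017196 at 1.61, both paralogs of Brwd1. All 4 circles of the lipid list were lower, from -1.30 for Ppap2b mmu_circRNA_37317, a lipid phosphate phosphatase, to -3.34 for Lpar1 mmu_circRNA_36841, a lysophosphatidic acid receptor. Of 5 microtubule circles in these tables, 4 were lower and 1 higher. The scaffold list had 15 such circles, 7 lower and 8 higher. Their median of 1.29 is that of a set chosen for change. Magi2, the paralog of Magi1, had the intronic mmu_circRNA_38151 at -2.38.

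For each circle, the circle of another host with the most alike profile was found among 2734 listed circles above background on all 6 arrays, as the smallest Euclidean distance between levels relative to the WT mean. For Map1a mmu_circRNA_34414 it was mmu_circRNA_38137 of Sema3c (distance 0.28, log2 change -4.40). For Lppr4 mmu_circRNA_36029 it was mmu_circRNA_41166 of Rdh13 (0.38, log2 change -2.23). The Brwd1 circles had mmu_circRNA_22807 of Sfi1 (0.14) and mmu_circRNA_31881 of Slmo1 (0.22).

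The bound Magi1 circle was nearest to mmu_circRNA_38811 of Kit (0.13, log2 change 1.06). Both near-identical unbound Magi1 circles had the same neighbour, mmu_circRNA_29710 of Igsf11 (0.24 and 0.30). The intronic Magi1 circle had mmu_circRNA_36254 of Pkn2 (0.09). None of these neighbours was on the HuD-bound list, and all came from the deposited tables. Those tables hold 2488 circles, and 567 of the 657 tested HuD-bound circles were in neither of them. Most candidates were therefore outside the HuD-bound list. The share of HuD-bound circles among candidates with changes this large was not counted, so the absence is a description only.

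The junction sequences were searched for 3 short motifs of the kind Hu proteins bind, on the printed strand. None of the 8 held any of them. The pentamer ATTTA was in 4.16% of all 3056 listed junction sequences. A run of TTTTT was in 5.14%, and the GU-rich pentamer GTTTG was in 6.28%. The search covered 60 bases of each circle and says nothing of the rest of it. The GC content of the 8 lay between 41.7% and 51.7%, against a median of 45.0% over the listed junctions.

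The deposited tables name 5 predicted miRNAs for each of 7 circles, 35 in all, with none named for more than 1 circle. No miRNA was measured. Of the 35, 32 had a mature sequence in RefSeq, and for 3 of these the complement of the seed (bases 2 to 8) was present in the junction sequence, as shown in capitals in the circle sequences above. The mature sequences of these 3 are shown 5′ to 3′ with the seed in capitals.
mmu-miR-1903 (Brwd1 mmu_circRNA_30129): cCUUCUUCuucuuccugagaca
mmu-miR-6946-3p (Brwd1 mmu_circRNA_30123): uUUCUUCUcuucccuuucag
mmu-miR-6962-5p (Map1a mmu_circRNA_34414): aAGGACCUggugggagaucu

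The matches of mmu-miR-1903 and mmu-miR-6946-3p fell in the purine-rich stretch of the Brwd1 junctions. Their complements, GAAGAAG and AGAAGAA, were in 3.30% and 3.57% of all listed junctions, and that of mmu-miR-6962-5p, AGGTCCT, was in 1.11%. Over the deposited tables, 565 of 10327 pairs of a circRNA and a predicted miRNA with a mature sequence had such a match (5.47%), beside 3 of 32 here. Counted by circle, 16.5% of circRNAs held a match for at least 1 of their predicted miRNAs. No match was found in the junctions of the unbound Magi1 circles or of Lppr4. The bound Magi1 circle had no predicted miRNAs in the deposited tables, so it was not searched.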

How the data were processed

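The members and gene lists were chosen with earlier results of these data known. The deposited scanner files (Agilent Feature Extraction 11.0.1.1) give the intensity of each spot, background-corrected within the array. The authors' deposited tables give circRNAs lower and higher in HuD KO with raw intensity and normalized log2 values, whose normalization is not given in the sources used here. Their p-value, FDR and fold change columns were not used. Columns of other samples numbered 0.

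Corrected intensities were taken as log2 and the 75th percentile of the circRNA probes of each array was subtracted. Outlier spots were left out. A probe was kept if each of the 3 arrays of some group had it well above background (13458 of 14236 circRNA probes), and 13445 had enough values to be tested. HuD KO was compared with WT in limma 3.58.1 (R 4.3.3, lmFit and eBayes) over the 6 arrays with no covariate. The Benjamini-Hochberg adjustment ran over all tested probes. The SE of a member's change comes from this fit, and that of a difference between circles from the per-array differences. The fit was tested on simulated data.

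The HuD-bound list gave membership, host, position and junction sequence for 658 circles, of which 657 were tested. Circles were named by a rule: all members, up to 3 largest rises and 3 largest falls among called HuD-bound circles of each related list, and the most alike profile of each member. Others were named after their values were seen: Map2, Brwd3, Phip, Ppap2b, Lpar1 and Magi2. Alternatives covered scaling, background (normexp with an offset of 50, on the median intensity because the files hold no mean), filters, outlier spots, the methods' t-test with equal variances, the replicate block, scan as a random block, the deposited log2 values and leaving out each array. Replicates were 1 mouse each, and precision is limited by having 3 arrays per group. A comparison of the junctions with host proteins was not run.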

Additional observations from a re-analysis of the deposited data

How the results depend on the processing

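Under 17 alternatives, 7 of the 8 circles were lower and 1 higher, and no change of these circles crossed 0. All differences between bound and unbound Magi1 circles kept their direction, and moved by more than the spread between arrays only for mmu_circRNA_40577 minus mmu_circRNA_40582 with normexp background (2.21). Without each array in turn, that difference lay between 2.56 and 2.86. The other Magi1 differences lay between 3.44 and 3.70 and between 3.42 and 3.76, and the Brwd1 difference between 0.31 and 0.80. The deposited log2 values could not give the Magi1 differences, since mmu_circRNA_40577 is in neither table.

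Counts depended on the scaling of the arrays. Over all probes, no scaling gave 2552 lower and 5348 higher calls, and control-probe scaling 8480 lower and 612 higher, against 4997 and 3522. Of the HuD-bound circles, 92 were called lower and 280 higher. No scaling gave 25 lower, control-probe scaling 292 lower and 39 higher, and scan as a random block 60 lower. Of the scaffold circles, called lower were 0 with median or no scaling, 3 with control-probe scaling, which left 1 higher, and 2 with normexp or the methods' t-test, and between 1 and 2 without each array. Of the microtubule circles, control-probe scaling gave 4 lower and 0 higher, and normexp and the methods' t-test 1 lower each. The circle mmu_circRNA_008397 of Dst was at -0.0047 with control-probe scaling, and mmu_circRNA_011419 of Dlgap1 at 0.000427 with no scaling. The cause was not tested.

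With the replicate number as a block (replicate block), 4779 probes were called lower and 3208 higher, and the within-host differences were unchanged at 0.59 for Brwd1 and 3.58, 3.62 and 2.72 for Magi1. Deviations of same-numbered arrays from their group means correlated at -0.01, -0.03 and -0.08, below the 0.1 set for treating them as pairs. HuD KO replicate 3 was scanned alone, so this cannot settle whether same-numbered mice were related.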
